A study of Mus musculus with 23 samples.

Results

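Major histocompatibility complex (MHC) and antigen processing genes were measured in the lungs of male Balb/c mice, with RNA-seq of 1 library per mouse. The set held 32 genes of 41388 gene rows in the count file, matched by symbol in GENCODE mouse release 21. It comprised 12 class II members, 18 class I members and the 2 costimulatory ligands Cd80 and Cd86. All 32 passed the filter on low counts. Mice inhaled clean air (3 libraries) or nebulised bacterial lipopolysaccharide (LPS, 0.21 mg/ml, 5 libraries) for 10 min on each of 3 days. In 3 further groups of 5 libraries, LPS inhalation was followed by human alpha1-antitrypsin (AAT, 4 mg/kg) given into the peritoneum 1 h after each exposure. AAT was native (nAAT), oxidized (oxAAT) or recombinant (recAAT), and the lungs were collected 6 h after the final dose. The labels state that saline was the alternative to AAT and give no age. They speak of 5 mice per group and of a group given an AAT peptide. The peptide group and further air mice were not analysed here.

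MHC class I molecules show peptides from inside the cell to CD8 T cells and to NK cells. Their peptides are cut by the proteasome, carried into the endoplasmic reticulum by the TAP transporter and loaded there with the help of tapasin. Class II molecules show peptides from endosomes to CD4 T cells, and dendritic cells, B cells and macrophages carry most of them. The invariant chain Cd74 guards the class II groove until endosomal proteases remove it, and H2-DM then swaps in a peptide. NLRC5 and CIITA are the transcriptional coactivators of the class I and class II genes respectively. Balb/c mice carry another MHC haplotype than the reference genome, and class I genes are close paralogs, so reads of H2-K1, H2-D1, H2-Q4, H2-Q7 and H2-T23 may be split or lost and their levels are uncertain. Reads of the class II chains H2-Aa, H2-Ab1 and H2-Eb1 may also be lost to the haplotype.

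Library depth was 14.8 M to 47.9 M gene counts (median 28.7 M). By mt-Nd6, encoded on the other strand of mitochondrial DNA than mt-Nd5, the libraries split into 2 sets with no name in the labels. Its count reached 0.34% to 1.14% of the mt-Nd5 count in a first set of 15 libraries and 3.39% to 4.5% in a second set of 8. The second set comprised every LPS+recAAT library and LPS+oxAAT replicates 5103, 5104 and 5105, and no library from another group. Comparisons of recAAT with LPS or nAAT therefore cannot be told apart from the sets, and those of oxAAT with LPS or nAAT are partly mixed with them. In a fit with the set as a term, the 2 first-set and 3 second-set LPS+oxAAT libraries alone separate set from group. The summed level of the lung markers Sftpc, Scgb1a1, Ager and Cldn5 was 38300 to 65100 CPM (gene counts relative to TMM-scaled library size) across all 23 libraries. In whole lung, fewer cells of a type and less RNA per cell cannot be told apart.

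Levels per kilobase of exon in air spanned a wide range. B2m, the light chain shared by class I molecules, was the highest at 715 ± 92.6 CPM per kb (SD, n = 3). Cd74 followed at 546 ± 64.9 CPM per kb, and the class I heavy chain H2-D1 at 382 ± 4.38 CPM per kb. The class II chains H2-Eb1 (123 ± 15.1 CPM per kb), H2-Ab1 (115 ± 17.7 CPM per kb) and H2-Aa (101 ± 17.1 CPM per kb) were neighbours whose spreads overlapped. Their order depends on exon length, which was 1944, 2568 and 3798 bases, with mean CPM in air of 240, 294 and 383. The regulators were low, Ciita at 2.99 ± 0.13 CPM per kb and Nlrc5 at 2.34 ± 0.164 CPM per kb. At the bottom lay Cd80 at 0.388 ± 0.073 CPM per kb and H2-Q7 at 0.316 ± 0.143 CPM per kb, which did not differ beyond their spread. On the same scale in LPS, B2m (770 ± 91.8 CPM per kb) and Cd74 (710 ± 93.5 CPM per kb, both n = 5) also overlapped in spread.

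After LPS, 6 members rose against air, all of them on the class I side: the proteasome activator subunit Psme2, the transporter subunit Tap2, tapasin (Tapbp), the tapasin-related peptide editor Tapbpl, the immunoproteasome subunit Psmb8 and the class I molecule H2-Q4. The background was 2.71% of 17148 genes called higher and 1.68% called lower in this comparison (edgeR, adjusted p under 0.05). Of the 18 class I members 6 were called, 17 had a positive log2 fold change, and their median was 0.39, against a median of -0.01 over all genes tested. None of the 12 class II members was called by edgeR. Of these 12, 10 were positive with a median of 0.21, and 5 had an unadjusted p under 0.05. The class II median was 0.13 without air replicate 2102 and 0.32 without air replicate 2105. The DESeq2 Wald test called 0 class II members and limma voom called 1, Cd74. Whether class I and class II members differed in their response was not tested.

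**Figure D1:**
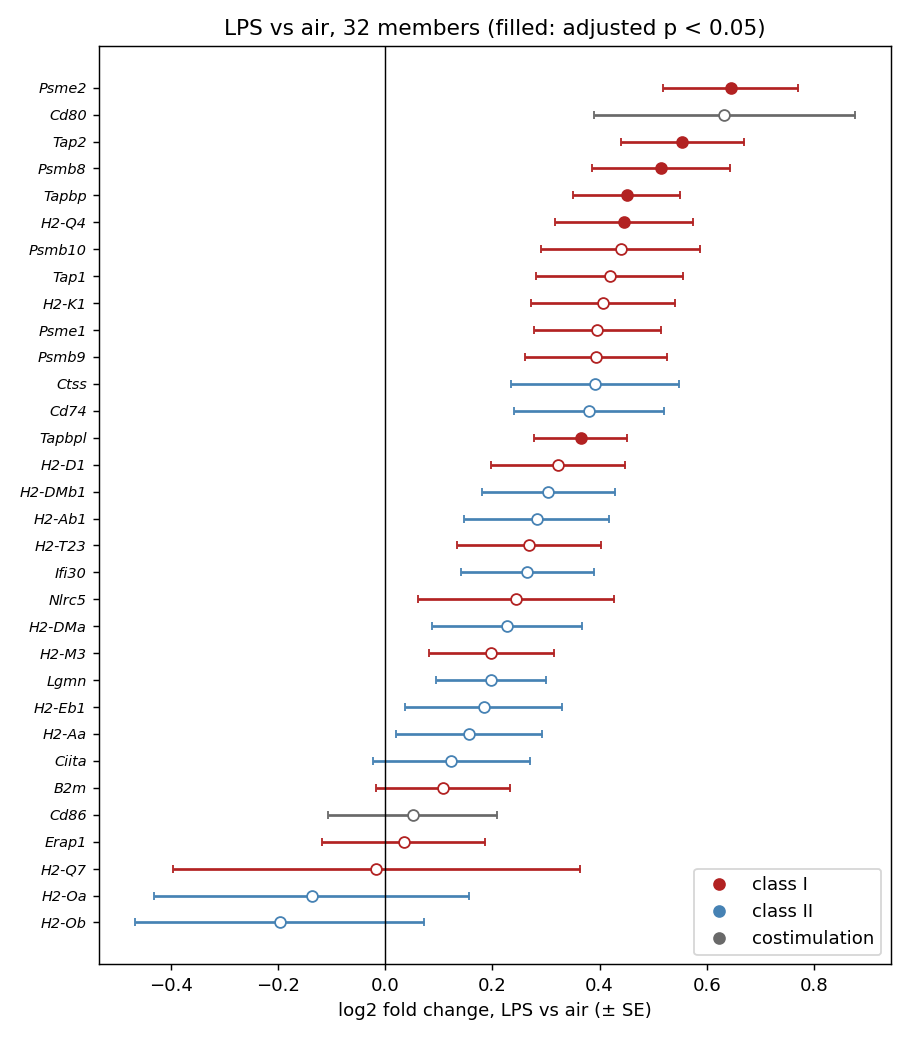
Log2 fold change (horizontal axis, with its SE) of each of the 32 members in LPS against air, coloured by class and filled where called. The 6 filled points all belong to class I, from Psme2 at 0.64 to Tapbpl at 0.36.

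Among the proteasome genes, Psme2 had 87.9, 89.5 and 117 CPM in the 3 air libraries and 165, 168, 147, 146 and 141 CPM in the 5 LPS libraries. Every LPS library lay above every air library. The share of all genes whose groups do not overlap was not computed, for this or any later comparison. Psme2 (ENSMUSG00000079197, chr14:55587441-55591113) encodes a subunit of the activator cap that opens the proteasome, and it rose by 0.64 ± 0.13 (log2 fold change ± SE, adjusted p = 0.00223). Psmb8 (ENSMUSG00000024338, chr17:34197721-34201454) replaces a catalytic subunit of the standard proteasome. Its CPM values were 53.3, 59.3 and 78.3 in air and 97.1, 97.8, 82.9, 100 and 76.5 in LPS. Air replicate 2105, at 78.3, lay above LPS replicate 1105, at 76.5, and Psmb8 rose by 0.51 ± 0.13 (adjusted p = 0.0195). The partner subunits Psmb9, Psmb10 and Psme1 had log2 differences of 0.39, 0.44 and 0.40 with adjusted p of 0.0922, 0.0948 and 0.0567, which missed the threshold.

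Among the loading genes, Tap2 had 96.0, 93.4 and 83.4 CPM in air and 131, 155, 124, 149 and 109 CPM in LPS. The groups did not overlap, and Tap2 (ENSMUSG00000024339, chr17:34203527-34216321) rose by 0.55 ± 0.11 (adjusted p = 0.00394). Its partner Tap1, with a log2 difference of 0.42 ± 0.14, missed the threshold (adjusted p = 0.0854). Tapbp (ENSMUSG00000024308, chr17:33915899-33929292) holds empty class I molecules at the transporter. It had 280, 262 and 249 CPM in air and 396, 391, 338, 355 and 322 CPM in LPS, again without overlap, and rose by 0.45 ± 0.10 (adjusted p = 0.00809). Tapbpl (ENSMUSG00000038213, chr6:125223933-125231860) had 46.6, 45.9 and 51.4 CPM in air and 64.9, 60.9, 61.9, 65.1 and 55.8 CPM in LPS. Its groups did not overlap either, and it rose by 0.36 ± 0.09 (adjusted p = 0.0132). Erap1, the aminopeptidase that trims peptides in the endoplasmic reticulum, had a log2 difference of 0.03 ± 0.15 (adjusted p = 0.937).

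**Figure D2:**
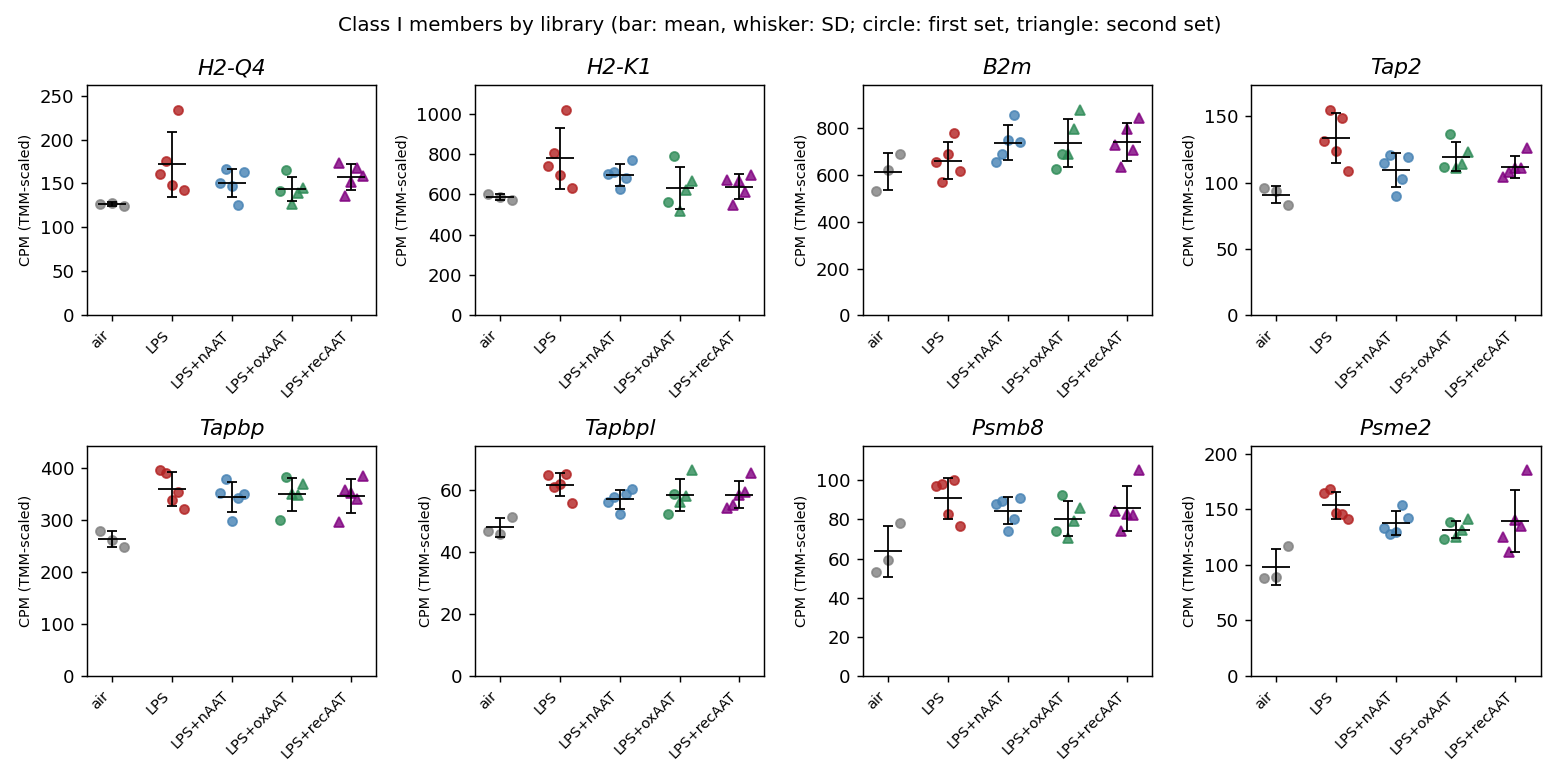
TMM-scaled CPM of 8 class I members in each library (points, circles for the first set and triangles for the second) with group mean and SD. For Psme2, Tap2, Tapbp, Tapbpl, H2-K1 and H2-Q4 every LPS library lies above every air library, while B2m overlaps between the groups. The share of all genes without overlap was not computed.

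Among the class I molecules, H2-Q4 (ENSMUSG00000035929, chr17:35379617-35385290), a gene of the Qa region, had 127, 128 and 124 CPM in air and 161, 175, 148, 234 and 142 CPM in LPS. The groups did not overlap, LPS replicate 1104 was far the highest, and H2-Q4 rose by 0.44 ± 0.13 (adjusted p = 0.0473). Without LPS replicate 1104 its log2 difference was 0.31, with an adjusted p of 0.119. The classical molecule H2-K1 had 602, 586 and 572 CPM in air and 738, 803, 696, 1020 and 631 CPM in LPS. Its libraries did not overlap, yet its log2 difference of 0.41 ± 0.13 missed the threshold (adjusted p = 0.0886). H2-D1, also a classical molecule, had 994, 987 and 972 CPM in air and 1220, 1280, 1130, 1580 and 946 CPM in LPS. LPS replicate 1105 lay below all 3 air libraries, and the log2 difference was 0.32 ± 0.12 (adjusted p = 0.158).

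B2m had 532, 622 and 690 CPM in air and 655, 569, 689, 779 and 619 CPM in LPS. The groups overlapped broadly, with a log2 difference of 0.11 ± 0.12 (adjusted p = 0.709). The non-classical molecules H2-T23 and H2-M3 had log2 differences of 0.27 and 0.20, and H2-Q7, at about 1 CPM, of -0.02. The coactivator Nlrc5 had 19.6, 21.4 and 18.6 CPM in air and 21.3, 20.7, 18.9, 34.2 and 22.5 CPM in LPS. LPS replicates 1104 and 1105 lay above the air libraries, 1104 by far, and the log2 difference was 0.24 ± 0.18 (adjusted p = 0.523).

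Of the class II genes, Cd74 came closest to the threshold. It had 899, 818 and 1030 CPM in air and 1360, 1280, 1120, 1240 and 960 CPM in LPS, so that 4 of 5 LPS libraries lay above all air libraries. Its log2 difference was 0.38 ± 0.14 (adjusted p = 0.133). The chains of the I-A molecule, H2-Aa (0.16 ± 0.14, adjusted p = 0.589) and H2-Ab1 (0.28 ± 0.13, adjusted p = 0.268), and the I-E chain H2-Eb1 (0.18 ± 0.15, adjusted p = 0.556) also missed it. H2-Aa had 350, 341 and 458 CPM in air and 503, 437, 418, 409 and 368 CPM in LPS, with overlap. H2-Ab1 had 274, 262 and 346 CPM in air and 413, 369, 345, 348 and 316 CPM in LPS. H2-Eb1 had 236, 213 and 271 CPM in air and 312, 283, 258, 295 and 214 CPM in LPS. In all 3 chain genes air replicate 2105 was the highest of its group and LPS replicate 1105 the lowest of its own.

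Ciita had 29.3, 27.1 and 29.1 CPM in air and 27.2, 21.5, 34.4, 39.1 and 32.9 CPM in LPS. The air libraries lay inside the range of LPS, and the log2 difference was 0.12 ± 0.15 (adjusted p = 0.72). The peptide exchange genes H2-DMa and H2-DMb1 had log2 differences of 0.23 and 0.30, and their inhibitors H2-Oa and H2-Ob of -0.14 and -0.20. Ctss, which cuts the invariant chain, differed by 0.39 (adjusted p = 0.174), the endosomal protease Lgmn by 0.20 and the thiol reductase Ifi30 by 0.26. Of the costimulatory ligands, Cd80 had a log2 difference of 0.63 ± 0.24 (adjusted p = 0.153), with means of 1.44 ± 0.27 CPM in air and 2.23 ± 0.67 CPM in LPS, and Cd86 of 0.05 ± 0.16 (adjusted p = 0.907).

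**Figure D3:**
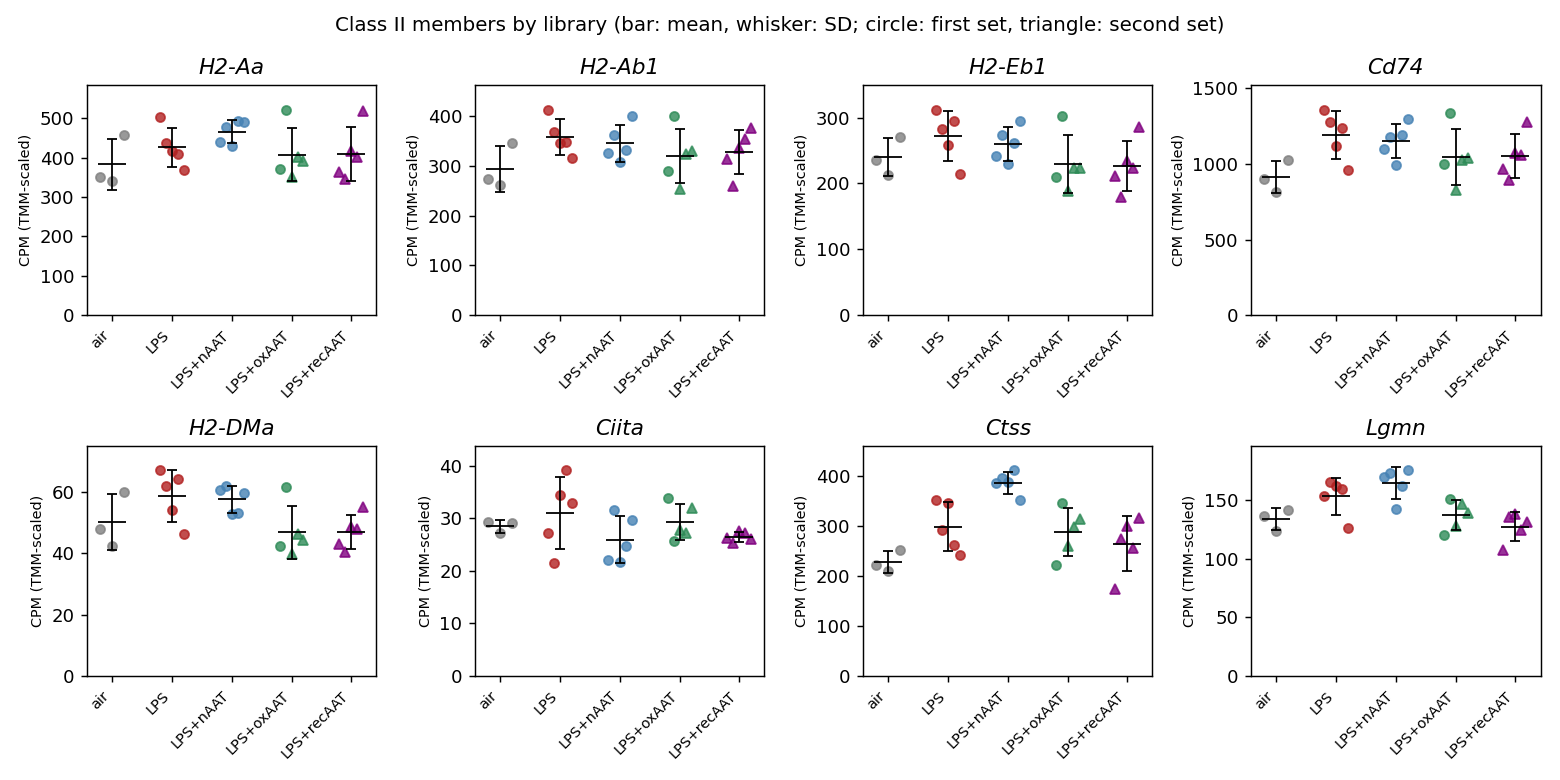
TMM-scaled CPM of 8 class II members in each library (points, circles for the first set and triangles for the second) with group mean and SD. Air and LPS overlap in all 8, and Ctss is highest in LPS+nAAT, whose libraries run from 353 to 412 CPM.

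The count of members called in LPS against air depended on single libraries. It was 13 without LPS replicate 1105, with Cd74 then among them, and 3 without air replicate 2101 or 2102. The shares of all genes called in those refits were not set beside these counts. Psme2 and Tap2 were called under every alternative run.

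Some markers of antigen-presenting cells were called in the same comparison. Of 11 dendritic cell markers 3 rose, the chemokines Ccl22 and Ccl17 and the actin-bundling protein Fscn1. The median log2 difference of the 11 was 0.07 with 4 negative, and Flt3 (0.07), Zbtb46 (0.03), Clec9a (-0.10), Cd209a (0.00) and Ccr7 (-0.21) were not called. The sum of the 11 was 94.1 to 108 CPM in air and 111 to 123 CPM in LPS. Ccl22, Ccl17 and Fscn1 had means of 4.65, 1.79 and 15.7 CPM in air and 11.7, 5.9 and 21.1 CPM in LPS. Of 10 monocyte and interstitial macrophage markers 4 rose, C1qa, C1qb, C1qc and Ms4a7. The sum of all 10 was 331 to 362 CPM in air and 414 to 482 CPM in LPS. Csf1r, which was not called, made up much of it, at 149 to 175 CPM in air and 176 to 221 CPM in LPS. Among 10 alveolar macrophage markers Marco rose and Ear2 fell, and the sum of all 10 was 478 to 533 CPM in air and 536 to 708 CPM in LPS. Chil3, which was not called, made up much of that sum, at 176 to 203 CPM in air and 251 to 317 CPM in LPS. The median log2 difference of these 10 was 0.105 with 4 negative. Of 10 B cell markers and 8 T and NK cell markers edgeR called 0 in LPS against air. No marker of these lists was at 0 in all libraries, and their part in the result was not tested.

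Of the other genes of the pathway 56 of 57 were tested, and 2 were called in LPS against air, both higher. That is 3.57%, near the 2.71% of all genes called higher. They were the lysosomal cathepsins Ctsb (0.46 ± 0.09, adjusted p = 0.00339) and Ctsz (0.55 ± 0.12, adjusted p = 0.00766).

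Promoter sequence is shown for some members only. They are H2-Aa as a class II gene that was not called, H2-Q4, Psmb8 and Psme2 from the class I genes that rose, and Ctss for the comparison of AAT forms. The windows run from 250 bases before to 50 after the RefSeq start on GRCm38.p6, read along the gene's strand, and capitals mark motif matches on either strand. They come from the reference strain, not from Balb/c. H2-Aa lies at chr17:34287774-34288073 (minus), H2-Q4 at chr17:35379367-35379666 (plus), Psmb8 at chr17:34197945-34198244 (plus), Psme2 at chr14:55591052-55591351 (minus, 1 of its 2 windows) and Ctss at chr3:95526536-95526835 (plus).
H2-Aa: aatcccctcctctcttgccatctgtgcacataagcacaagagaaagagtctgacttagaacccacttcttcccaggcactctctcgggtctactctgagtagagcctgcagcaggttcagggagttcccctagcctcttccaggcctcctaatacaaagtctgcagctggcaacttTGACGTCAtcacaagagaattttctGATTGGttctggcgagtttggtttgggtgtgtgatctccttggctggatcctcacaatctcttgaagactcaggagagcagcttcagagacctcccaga
H2-Q4: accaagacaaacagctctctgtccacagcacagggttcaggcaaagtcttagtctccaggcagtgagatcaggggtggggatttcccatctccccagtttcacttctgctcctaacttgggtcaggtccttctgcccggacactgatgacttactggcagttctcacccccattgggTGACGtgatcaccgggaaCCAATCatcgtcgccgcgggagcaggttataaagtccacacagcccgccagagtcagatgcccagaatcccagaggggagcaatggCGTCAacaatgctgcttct
Psmb8: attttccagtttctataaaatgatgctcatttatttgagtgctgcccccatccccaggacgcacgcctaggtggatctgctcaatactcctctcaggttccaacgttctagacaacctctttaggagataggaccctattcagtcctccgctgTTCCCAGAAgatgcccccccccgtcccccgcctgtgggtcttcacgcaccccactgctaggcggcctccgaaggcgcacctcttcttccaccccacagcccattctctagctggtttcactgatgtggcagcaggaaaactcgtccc
Psme2: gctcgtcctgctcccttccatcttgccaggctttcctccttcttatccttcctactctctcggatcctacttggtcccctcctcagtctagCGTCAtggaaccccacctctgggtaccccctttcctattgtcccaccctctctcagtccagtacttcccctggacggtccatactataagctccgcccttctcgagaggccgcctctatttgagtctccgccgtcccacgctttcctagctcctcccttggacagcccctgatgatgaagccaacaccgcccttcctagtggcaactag
Ctss: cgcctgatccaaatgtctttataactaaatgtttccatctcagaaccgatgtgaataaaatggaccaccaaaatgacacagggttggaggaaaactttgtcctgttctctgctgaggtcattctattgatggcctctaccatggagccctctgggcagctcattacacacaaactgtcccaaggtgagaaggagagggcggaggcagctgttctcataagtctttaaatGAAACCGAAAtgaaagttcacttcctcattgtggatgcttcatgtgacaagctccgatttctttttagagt

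Windows were found for 25 of 32 members, and Tap2, Nlrc5, Ciita, Cd86, Cd74, Tapbpl and H2-Ab1 had none. GATTGG, the core of the Y box bound by NF-Y, stood in 6 of 9 class II and 8 of 15 class I members with a window, against 16.1% of all 32851 windows of that length and 18.2% of the 27025 genes with a window. Members and genes are counted here over any of their windows, and H2-DMa holds the Y box letters in its second window alone. The windows of Psmb9 and Tap1 share 275 bases, so their matches are not separate. TGACG, the core of the X2 box, stood in 2 of 9 and 9 of 15, against 20.8% of windows and 23% of genes. Both stand in H2-Aa and H2-Q4, where in H2-Aa the X2 match is part of a palindrome read on both strands. The core of the interferon-stimulated response element stood in 1 of 9 class II members, Ctss, and in 4 of 15 class I members, B2m, Erap1, Psme1 and H2-T23, against 3.44% of windows and 3.99% of genes. TTCNNNGAA, a STAT site core, stood in Psmb8 and H2-M3 among 15 class I members and in 0 of 9 class II members, against 8.3% of windows and 9.55% of genes. In the windows printed, capitals mark the X2 core in Psme2, the STAT core in Psmb8 and the interferon-stimulated response element core in Ctss. The window of Tapbp, which also rose, holds none of these motifs and was not printed. A match is a stretch of letters and not a measured site.

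No member was called by edgeR in any AAT group against LPS. The 3 comparisons share the 5 LPS libraries. In LPS+nAAT against LPS, where 0.449% of genes were called higher and 0.146% lower, 5 members had an unadjusted p under 0.05, and the DESeq2 Wald test and limma voom called 0. The class II median was -0.04 and the class I median -0.14, against 0.00 for all genes, and they turned to 0.07 and -0.07 when the GC curve was removed. With 1 library left out the class II median ran from -0.11 (without LPS replicate 1105) to 0.015 (without LPS replicate 1101). The class I median was -0.06 without LPS replicate 1104 and -0.08 without LPS+nAAT replicate 4103. Ctss had 387, 396, 388, 412 and 353 CPM in LPS+nAAT, every one above the 352, 293, 346, 262 and 243 CPM of LPS. Its log2 difference of 0.37 ± 0.13 missed the threshold (adjusted p = 0.191). Tap2 had a difference of -0.29 ± 0.10 (adjusted p = 0.159).

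In LPS+oxAAT against LPS, where 3.94% of genes were called higher and 0.77% lower, all 12 class II members had a negative log2 difference, with a median of -0.16. The class I median was also -0.16, and 15 of 18 were negative, against -0.01 for all genes. With the set of libraries as a term the class II median was -0.07, in the first set alone -0.07, and without LPS+oxAAT replicate 5102 -0.27. The class I median was -0.07 without LPS replicate 1104 and -0.10 with the GC curve removed. In this comparison 5 members had an unadjusted p under 0.05, the DESeq2 Wald test called 0 and limma voom called 2 lower, H2-DMa and H2-K1. H2-K1 had a difference of -0.30 ± 0.12 (adjusted p = 0.141), with LPS+oxAAT replicate 5102 at 791 CPM above the rest of its group. Without replicate 5102, 4 members were called lower, H2-Eb1, H2-DMa, H2-DMb1 and H2-K1. Without LPS replicate 1105 the count was 1, H2-DMa. The shares of all genes called in these refits were not set beside the counts.

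In LPS+recAAT against LPS, where 6.47% of genes were called higher and 2.02% lower, all 12 class II members were again negative, with a median of -0.23. The class I median was -0.16 with 16 of 18 negative, against -0.01 for all genes. Without LPS replicate 1104 the class I median was -0.09. With the GC curve removed the medians were -0.14 for class II and -0.11 for class I. Here 11 members had an unadjusted p under 0.05, the DESeq2 Wald test called 1 lower, Lgmn, and limma voom 2 lower, Lgmn and Psmb10. Lgmn, at 107, 135, 138, 124 and 131 CPM in LPS+recAAT and 153, 165, 162, 159 and 126 CPM in LPS, came closest to the threshold at -0.27 ± 0.09 (adjusted p = 0.0603). LPS replicate 1105 was the LPS library within the recAAT range. Without it 8 members were called lower, H2-DMa, Lgmn, H2-K1, H2-D1, H2-T23, Tap2, Psmb9 and Psmb10, and without LPS+recAAT replicate 6105 the count was 1, Psmb10. The shares of all genes called in those refits were not set beside the counts. With the set of libraries as a term the class II median was -0.02.

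Markers of other cells shifted beside these medians, without a call by edgeR in any AAT group against LPS. Of 10 B cell markers, 9 were negative in LPS+recAAT (median -0.38), 8 in LPS+oxAAT (-0.16) and all 10 in LPS+nAAT (-0.33). The 10 genes summed to between 224 and 305 CPM across LPS libraries. With nAAT the range was 173 to 250, with oxAAT 148 to 401 and with recAAT 160 to 258 CPM. The 4 lung markers were all negative in LPS+recAAT (median -0.24) and in LPS+oxAAT (-0.27). Of 10 alveolar macrophage markers, 8 were negative in LPS+recAAT (-0.21), and 10 in LPS+nAAT (0.47) and 8 in LPS+oxAAT (0.22) were positive. Their part in the member values was not tested.

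Of the 12 class II members, Ctss in LPS+nAAT and H2-DMb1 in LPS+recAAT did not overlap LPS, and the others overlapped it in all 3 AAT groups. How many of all genes do not overlap in these comparisons was not computed. H2-DMb1, a chain of the peptide exchange factor, had 30.3, 23.4, 30.2, 30.3 and 32 CPM in LPS+recAAT and 32.6, 37.6, 33.4, 37.3 and 32.2 CPM in LPS. All 5 LPS+recAAT libraries lay below LPS, and the log2 difference of -0.24 ± 0.11 missed the threshold (adjusted p = 0.163). H2-Aa had 441, 478, 429, 492 and 491 CPM in LPS+nAAT, 372, 522, 351, 402 and 392 CPM in LPS+oxAAT and 364, 345, 416, 403 and 519 CPM in LPS+recAAT. H2-Ab1 had 326, 362, 307, 331 and 400 CPM in LPS+nAAT, 290, 400, 254, 323 and 330 CPM in LPS+oxAAT and 313, 260, 336, 353 and 376 CPM in LPS+recAAT. In both I-A chains LPS+oxAAT replicate 5102 was the highest of its group and replicate 5103 the lowest. H2-Eb1 had 242, 274, 229, 261 and 294 CPM in LPS+nAAT, 210, 303, 188, 223 and 223 CPM in LPS+oxAAT and 211, 180, 234, 223 and 285 CPM in LPS+recAAT. Cd74 had 1100, 1180, 992, 1190 and 1300 CPM in LPS+nAAT, 1000, 1340, 831, 1030 and 1040 CPM in LPS+oxAAT and 967, 892, 1070, 1060 and 1280 CPM in LPS+recAAT. The lowest library of LPS+recAAT was replicate 6102 in both of these and the highest was 6105, while LPS+nAAT stayed within the LPS range. Ciita had 22, 31.5, 21.7, 24.8 and 29.6 CPM in LPS+nAAT, 33.8, 25.6, 27.8, 27.1 and 32 CPM in LPS+oxAAT and 26.3, 25.2, 27.5, 27.1 and 26 CPM in LPS+recAAT. Its AAT libraries all lay within the 21.5 to 39.1 CPM of LPS, and the log2 differences from LPS were -0.26, -0.09 and -0.23 in nAAT, oxAAT and recAAT.

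The 6 members that rose with LPS were picked by high values in the same LPS libraries that the AAT groups are set against, so lower AAT values in them are given as a description only. Psme2 had 133, 128, 130, 154 and 142 CPM in LPS+nAAT, 123, 139, 125, 131 and 141 CPM in LPS+oxAAT and 125, 112, 140, 135 and 185 CPM in LPS+recAAT. LPS+recAAT replicate 6105 exceeded every LPS library, and the log2 differences from LPS were -0.16, -0.22 and -0.14. Psmb8 had 87.7, 89.3, 74.2, 80.3 and 90.9 CPM in LPS+nAAT, 74, 92.3, 70.4, 79.1 and 85.8 CPM in LPS+oxAAT and 84.2, 73.9, 82.9, 82 and 105 CPM in LPS+recAAT. For Tap2 the values were 115, 121, 89.8, 103 and 119 CPM in LPS+nAAT, 112, 137, 111, 114 and 123 CPM in LPS+oxAAT and 104, 108, 111, 111 and 126 CPM in LPS+recAAT. Their differences from LPS were -0.10, -0.18 and -0.08 for Psmb8 and -0.29, -0.16 and -0.25 for Tap2. Tapbp had 353, 379, 299, 342 and 351 CPM in LPS+nAAT, 300, 383, 350, 348 and 369 CPM in LPS+oxAAT and 296, 358, 352, 341 and 386 CPM in LPS+recAAT. Tapbpl had 56.1, 57.8, 52.3, 58.6 and 60.4 CPM in LPS+nAAT, 52.2, 58.7, 56, 58 and 66.3 CPM in LPS+oxAAT and 54.2, 55.2, 58.3, 59.4 and 65.4 CPM in LPS+recAAT. For these loading factors the differences stayed between -0.11 and -0.04. H2-Q4 had 151, 166, 147, 126 and 163 CPM in LPS+nAAT, 141, 165, 127, 139 and 145 CPM in LPS+oxAAT and 173, 136, 152, 168 and 159 CPM in LPS+recAAT. No AAT library reached the 234 CPM of LPS replicate 1104, and the differences were -0.19, -0.26 and -0.13.

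The classical class I molecules H2-K1 and H2-D1 had lower means in the AAT groups than in LPS, where replicate 1104 was the highest, without a call. H2-K1 had 699, 712, 624, 679 and 772 CPM in LPS+nAAT, 564, 791, 517, 621 and 668 CPM in LPS+oxAAT and 670, 548, 667, 609 and 698 CPM in LPS+recAAT. H2-D1 had 1160, 1130, 1040, 1150 and 1230 CPM in LPS+nAAT, 947, 1310, 914, 1120 and 1100 CPM in LPS+oxAAT and 997, 949, 1050, 977 and 1090 CPM in LPS+recAAT. Mean H2-K1 was 778 ± 150 CPM in LPS (SD, n = 5), 697 ± 53.8 in LPS+nAAT, 633 ± 106 in LPS+oxAAT and 638 ± 60.0 in LPS+recAAT, with log2 differences from LPS of -0.16, -0.30 and -0.28. For H2-D1 they were -0.11, -0.19 and -0.28. Nlrc5 had 14.9, 24.6, 20, 22.3 and 19.7 CPM in LPS+nAAT, 19.8, 22.9, 17.9, 16.9 and 29.9 CPM in LPS+oxAAT and 20.9, 17.4, 19.6, 18.6 and 16.8 CPM in LPS+recAAT. LPS+oxAAT replicate 5105 stood above the rest of its group, and the differences of Nlrc5 were -0.21, -0.13 and -0.33, with an adjusted p of 0.198 in LPS+recAAT.

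Class I genes with a positive difference from LPS were few. B2m had 728, 633, 799, 706 and 845 CPM in LPS+recAAT, 624, 691, 689, 798 and 880 CPM in LPS+oxAAT and 657, 688, 752, 856 and 742 CPM in LPS+nAAT. All 3 groups overlapped LPS, and the log2 differences from LPS were 0.16, 0.15 and 0.16 in nAAT, oxAAT and recAAT. Erap1 had differences of 0.22, 0.26 and 0.17 in the same order. None of these passed the test.

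**Figure D4:**
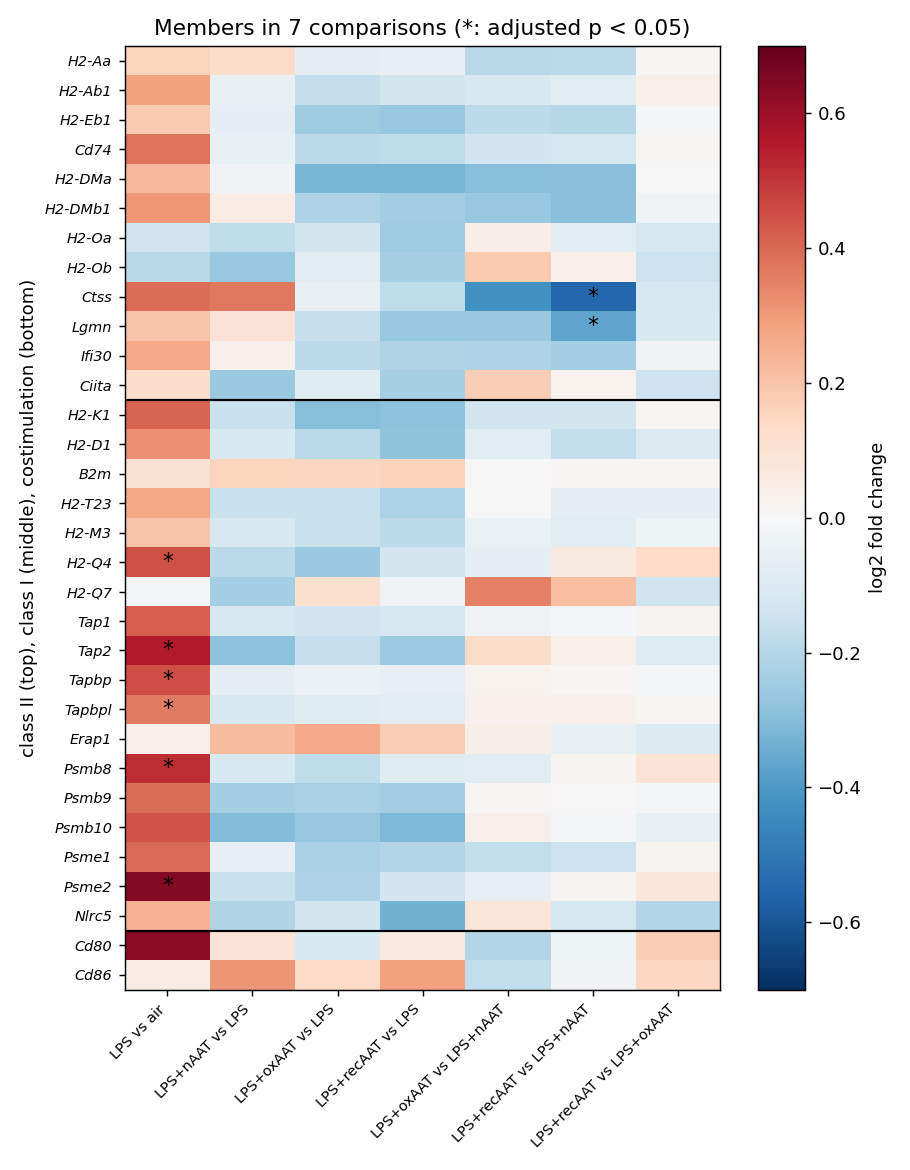
Log2 fold change of the 32 members (rows) in 7 comparisons (columns), with class II above, class I in the middle and costimulation below. An asterisk marks the calls, which are 6 class I members in LPS against air and Ctss and Lgmn in LPS+recAAT against LPS+nAAT.

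Of the 56 other pathway genes tested, edgeR called 1 in LPS+nAAT against LPS (1.79%, beside 0.449% of all genes called higher), the endosomal protease Ctsh, higher by 0.33 ± 0.07. In the first set alone its adjusted p was 0.0592. In LPS+oxAAT against LPS the chaperone Canx (0.42) and the NF-Y subunit Nfyb (0.33) were higher, 3.57% beside 3.94% of all genes. In LPS+recAAT against LPS 3 were higher, Nfyb (0.37), Ctsh (0.24) and the ubiquitin ligase March1 (0.57), which lowers surface class II, 5.36% beside 6.47% of all genes. The class II promoter factor Rfxank (-0.38) and Wdfy4 (-0.36), a factor in cross-presentation by dendritic cells, were lower, 3.57% beside 2.02%. Ctsh was also lower in LPS+oxAAT than in LPS+nAAT by a log2 difference of -0.32 (adjusted p = 0.0461). All LPS and LPS+nAAT libraries are in the first set, so the set term could not test Ctsh in LPS+nAAT against LPS (0.33 with it, adjusted p = 0.0251). That call was lost with only these groups in the edgeR fit (adjusted p = 0.0877). It was also lost with only genes without counts removed (adjusted p = 0.0917) and without LPS replicate 1104 (adjusted p = 0.101). With the set of libraries as a term none of the calls that involve LPS+oxAAT or LPS+recAAT was kept. Against LPS the differences were then 0.11 for Canx and 0.04 for Nfyb in LPS+oxAAT. In LPS+recAAT they were -0.09 for Nfyb, 0.33 for Ctsh, 0.095 for March1, -0.16 for Rfxank and -0.39 for Wdfy4. Those of Ctsh and Wdfy4 were no smaller than without the term, but with adjusted p of 0.601 and 0.673 by edgeR. Ctsh in LPS+oxAAT against LPS+nAAT was at -0.27. With the GC curve removed Canx (0.18) and Nfyb (0.27) in LPS+oxAAT against LPS were not called. Nor were March1 (0.31), Rfxank (-0.26) and Wdfy4 (-0.28) in LPS+recAAT against LPS. Nfyb in LPS+recAAT against LPS and Ctsh in its comparisons were still called.

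In the comparisons between AAT groups 2 members were called, both class II, in LPS+recAAT against LPS+nAAT, where form and set cannot be told apart. Between LPS+oxAAT and LPS+nAAT, where 0.344% of genes were called, edgeR called 0 members, 4 had an unadjusted p under 0.05, the DESeq2 Wald test called 0 and limma voom 4 lower (H2-DMa, H2-DMb1, Ctss and Lgmn). Between LPS+recAAT and LPS+oxAAT, where 0.0175% of genes were called, edgeR, the DESeq2 Wald test and voom each called 0 members and 0 had an unadjusted p under 0.05. In LPS+recAAT against LPS+nAAT, where 1.21% of genes were called higher and 0.723% lower, Ctss and Lgmn were lower.

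Ctss (ENSMUSG00000038642, chr3:95526786-95556403) had 175, 275, 301, 256 and 316 CPM in LPS+recAAT, all below the 353 to 412 CPM of LPS+nAAT. It fell by 0.55 ± 0.13 on the log2 scale (adjusted p = 0.0317). Lgmn (ENSMUSG00000021190, chr12:102394084-102439813), at 107 to 138 CPM in LPS+recAAT and at 169, 173, 142, 162 and 175 CPM in LPS+nAAT, did not overlap between the groups either. It fell by 0.37 ± 0.09 (adjusted p = 0.0291). With the set of libraries as a term neither was called, at -0.58 (adjusted p = 0.343) for Ctss and -0.39 (adjusted p = 0.338) for Lgmn. Leaving out 1 library at a time gave adjusted p up to 0.0984 for Ctss and up to 0.116 for Lgmn, the highest for both without LPS+recAAT replicate 6101.

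In the same comparison 7 of 10 alveolar macrophage markers fell, Marco, Siglecf, Ear2, Ear1, Fabp1, Krt79 and Pparg. The summed level of all 10, with the uncalled Chil3, Mrc1 and Atp6v0d2, was 734 to 1030 CPM in LPS+nAAT and 367 to 739 CPM in LPS+recAAT. It was lowest in replicate 6101, which was also lowest for Ctss and Lgmn. The lysosomal cathepsin Ctsd also fell, by 0.42 ± 0.10 (adjusted p = 0.0317). With the set of libraries as a term edgeR called 0 of all genes in this comparison, with Ctsd at -0.45 (adjusted p = 0.342). No alveolar macrophage marker was at 0 in all libraries. Other lists also lay lower in LPS+recAAT than in LPS+nAAT. All 8 alveolar type 2 cell markers (median -0.18, 1 called), all 8 T and NK cell markers (-0.16) and all 4 lung markers (-0.11) were negative. Of the B cell, dendritic cell and monocyte and interstitial macrophage markers, 6 of 10, 6 of 11 and 6 of 10 were negative. The part of any of these cells in the result was not tested.

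Single libraries were at the end of their group for many members. LPS replicate 1105 was the lowest of its group for 23 of 32 members, with a median of -0.22 log2 units from the group mean, and it was the lowest for 21.1% of all genes tested. LPS replicate 1104 was the highest for 16 members and for 19.5% of all genes. LPS+nAAT replicate 4103 was lowest for 23 members (22.1% of all genes) and LPS+oxAAT replicate 5102 highest for 23 (31.6%). LPS+recAAT replicate 6102 was lowest for 21 members (25% of all genes) and replicate 6105 highest for 22 (24.6%). Air replicate 2105 was the highest for 20 of 32 and the lowest for 8, beside 38.1% and 38% of all genes. Its place differed by class, with 11 of 12 class II members highest there, and 9 highest and 8 lowest of the 18 class I members.

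**Figure D5:**
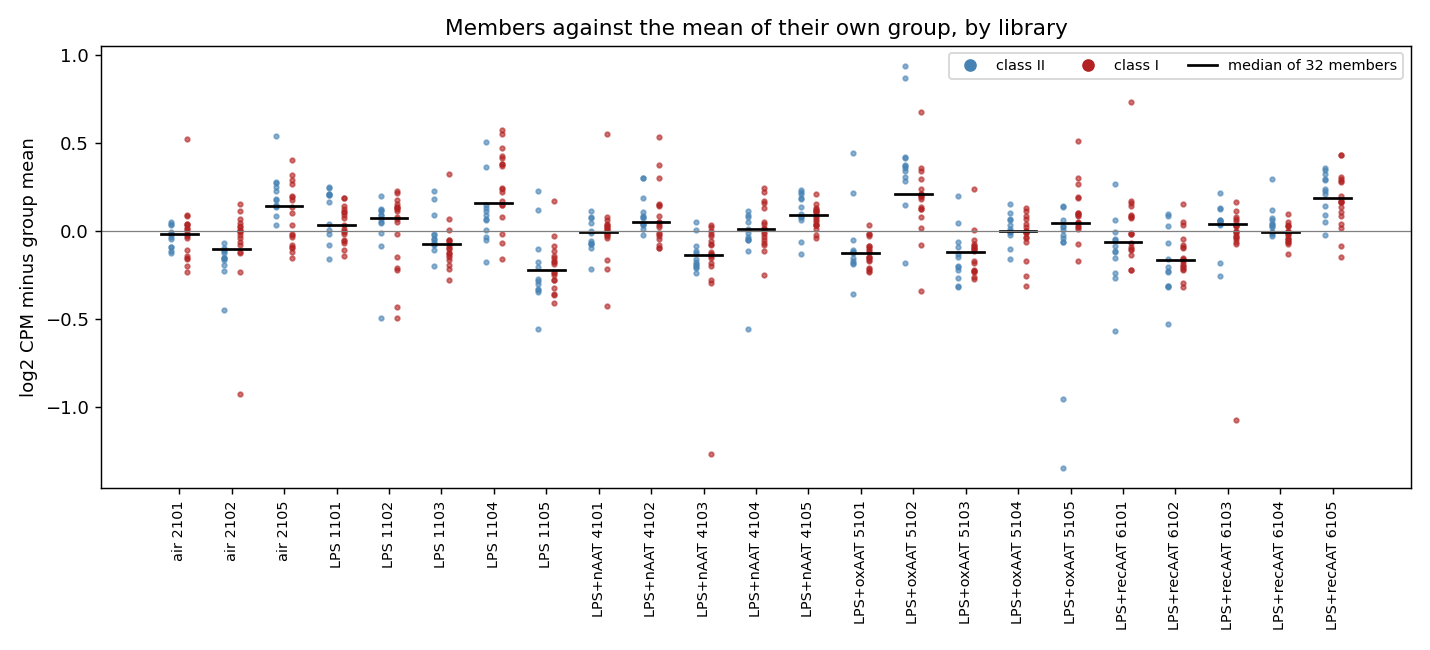
Log2 CPM of each class I and class II member minus the mean of its own group (vertical axis), by library, with the median of all 32 members as a bar. The bar is lowest in LPS replicate 1105 at -0.22 and highest in LPS+oxAAT replicate 5102 at 0.21.

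The class II inhibitors H2-Oa and H2-Ob, which are known from B cells, varied most within LPS+oxAAT. H2-Ob had 20.8, 28.0, 17.6, 13.7 and 6.03 CPM and H2-Oa 3.24, 6.99, 3.77, 4.06 and 1.88 CPM in replicates 5101 to 5105. Both were highest in replicate 5102 and lowest in 5105. The summed B cell markers were 243, 401, 210, 217 and 148 CPM in the same libraries, also highest in 5102 and lowest in 5105.

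Relations between single genes were computed for 6 pairs on log2 CPM minus the group mean over 23 libraries, with permutation p adjusted over the 6. H2-Aa and the B cell gene Cd79a had Pearson r = 0.65 (permutation p = 0.0036, adjusted 0.022) and Spearman rho = 0.57 (permutation p = 0.012, adjusted 0.073). Without the 2 libraries farthest from the median of H2-Aa r was 0.37 (adjusted permutation p = 0.52). Leaving these out also narrows the range of H2-Aa, so the fall cannot show that the relation rests on them. Within the sets r was 0.62 in the first (adjusted permutation p = 0.26) and 0.60 in the second (adjusted permutation p = 0.38). H2-Aa and H2-K1 had r = 0.51 (permutation p = 0.025, adjusted 0.075), rho = 0.49 (permutation p = 0.031, adjusted 0.094), r = 0.29 without the 2 farthest, and r = 0.40 and 0.67 within the sets.

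Neither coactivator had a relation to its target that passed the threshold. Nlrc5 and H2-K1 had r = 0.53 (permutation p = 0.053, adjusted 0.11), rho = 0.43 (permutation p = 0.071, adjusted 0.14), r = 0.24 without the 2 farthest, and r = 0.56 and 0.49 within the sets. Ciita and H2-Aa had r = -0.13 (permutation p = 0.51, adjusted 0.62), rho = -0.08 (permutation p = 0.71, adjusted 0.71), r = -0.11 without the 2 farthest, and r = -0.23 and 0.17 within the sets. H2-Aa had r = 0.06 with the dendritic cell gene Flt3 (permutation p = 0.77, adjusted 0.77) and rho = 0.11 (permutation p = 0.61, adjusted 0.71), with r = 0.00 without the 2 farthest and -0.07 and 0.27 within the sets. With the alveolar macrophage gene Marco it had r = -0.20 (permutation p = 0.41, adjusted 0.62) and rho = -0.14 (permutation p = 0.57, adjusted 0.71), with r = -0.24 without the 2 farthest and -0.28 and 0.14 within the sets.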

How the data were processed

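Per the labels' protocols, library preparation from lung RNA was stranded and poly(A)-selected. The authors deposited raw counts per Ensembl gene, and the submitters' processing notes name HTSeq 0.11.1, STAR 2.4.0.1, Trimmomatic 0.36 and 0.38 and FastQC 0.11.8, on GRCm38. The annotation release and strand setting were not given in the sources used here. Of the file, 5 summary lines were left out: 6.79% to 13.13% of reads were on no feature, 1.12% to 1.39% ambiguous and 4.09% to 6.08% not uniquely aligned. Members were matched by symbol in GENCODE mouse release 21.

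All 23 libraries were fitted in 1 model with edgeR 4.0.16 (R 4.3.3): TMM scaling (factors 0.978 to 1.028), filterByExpr, robust quasi-likelihood F tests, two-sided, Benjamini-Hochberg over 17148 genes, called at adjusted p under 0.05. DESeq2 1.42.0 and limma 3.58.1 (voom) were alternatives. CPM are TMM-scaled. The test was checked on simulated counts. Permutation p were two-sided, with 100000 draws within groups. Promoter windows are from RefSeq. P-values reflect spread among these mice, and counting error adds most at low CPM. All 32 members are named, with values in every library for those called and for H2-Aa, H2-Ab1, H2-Eb1, Cd74, Ciita, H2-K1, H2-D1, B2m and Nlrc5, and other pathway genes only where called. Members, gene lists and tests were chosen with earlier results of these data known.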

Additional observations from a re-analysis of the deposited data

Results flagged for a closer look

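In 4 of 128 tests of a member within a group of 5, that is 3.12%, 1 library stood far from the others, where chance gives about 1 in 20. H2-DMb1 was 23.4 CPM in LPS+recAAT replicate 6102 against 30.2 to 32 CPM in the other 4. H2-Q7 was 2.2 CPM in LPS+oxAAT replicate 5102 against 1.15 to 1.36 CPM. Psmb10 was 97.0 CPM in LPS+recAAT replicate 6105 against 64.2 to 68.8 CPM. Nlrc5 was 34.2 CPM in LPS replicate 1104 against 18.9 to 22.5 CPM. In addition, Ctss (log2 difference -0.55) and Lgmn (-0.37) were called lower in LPS+recAAT than in LPS+nAAT by edgeR. All LPS+recAAT libraries are in the second set and all LPS+nAAT libraries in the first, so AAT form and set cannot be told apart. With the set as a term neither was called (adjusted p = 0.343 and 0.338).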

How the results depend on the processing

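Members called in LPS against air, 6 as reported, numbered 3 at an adjusted p under 0.01, 11 with the DESeq2 Wald test, 10 with limma voom, 2 with only air and LPS in the fit, and 3 to 13 with 1 library left out. In LPS+oxAAT against LPS (0 as reported) voom called 2, and leaving out 1 library gave 0 to 4. In LPS+recAAT against LPS (0) a stricter filter (1 CPM or more in 5 or more libraries) gave 1, the Wald test 1, voom 2, and leaving out 1 library 0 to 8. In LPS+oxAAT against LPS+nAAT (0) voom gave 4. In LPS+recAAT against LPS+nAAT (2) the count was 0 at an adjusted p under 0.01, 1 with only genes without counts removed, 4 with voom, 0 with the set of libraries as a term, and 0 to 2 with 1 library left out. In LPS+nAAT against LPS and LPS+recAAT against LPS+oxAAT it was 0 in every setting run. The share of all genes called was not set beside the counts of these alternatives. They therefore do not show whether members moved apart from other genes. The cause of these shifts was not tested. For H2-Aa and Cd79a r was 0.62 and 0.60 within the sets and 0.37 without the 2 farthest libraries, with adjusted permutation p of 0.26, 0.38 and 0.52.

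The labels state no pairing, and whether mouse numbers that end alike pair the samples was checked by correlating their deviations. The pairs are too few to exclude it. In LPS against air the correlations of same-numbered deviations were -0.162 to -0.005, and 0 of 3 correlated best with their own number. In the comparisons of 5 pairs they ran from -0.22 to 0.354, with 1 to 3 of 5 over 0.1 (3 in LPS+oxAAT against LPS) and 0 to 2 best with their own number. With that replicate block 9 members were called in LPS against air and 2 in LPS+recAAT against LPS+nAAT. A fit of the second set alone for LPS+recAAT against LPS+oxAAT was added after seeing the data and called 0. No value within the first set was possible for LPS+recAAT. The exons of H2-Q4, Tapbp, Psmb8 and Tap2 overlap genes on the opposite strand over 19.1%, 24.9%, 14.7% and 14.1% of their length, and the strand setting is unknown. With the GC curve removed, H2-Q4 (adjusted p = 0.0556) and Tapbp (adjusted p = 0.0757) were not called in LPS against air.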
